A study of Mus musculus with 6 samples.

Results

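The replication-dependent histone genes encode the core histones H2A, H2B, H3 and H4 and the linker histone H1 that package newly copied DNA. They were followed here as genes without introns, set beside the loss of a splicing factor. Members were the protein-coding rows whose symbol is of the older Hist form or consists of H1f, H2ac, H2bc, H3c or H4c and a number, where the H1f number begins with 1 to 6. The rule found 65 rows of 47122. They comprised 7 H1, 17 H2A, 17 H2B, 12 H3 and 12 H4 rows. The name pattern also takes in H1f10, a replacement linker histone that is not tied to DNA replication. The summed level and the median fold change of the members are given with and without it.

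The samples were whole ovaries of newborn mice at 1 day post partum (dpp), with 3 samples from Bcas2 conditional knockouts (cKO), in which, per the series' design text, oocytes lost the gene, and 3 wild-type (WT) samples. Bcas2 is a component of the spliceosome-associated PRP19 complex. The cells that carry the deletion are only part of the tissue, and the labels name neither the Cre driver nor the deleted exons nor the number of animals behind a sample. Every p-value therefore rests on a spread between samples that may be technical. In a whole tissue, fewer cells of a type and less RNA per cell cannot be told apart.

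Replication-dependent histone mRNAs are made during S phase and stand apart from almost all other mRNAs of animal cells. They have no introns and end, in place of a poly(A) tail, in a short hairpin that is bound by the stem-loop binding protein SLBP, and their ends are cut with the help of the U7 small nuclear RNP. Replacement histones such as H3.3 and H2A.Z are made throughout the cell cycle from ordinary spliced and polyadenylated transcripts.

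The gene models of the table follow that outline for most members. A row whose span on the genome equals its stated length was taken as a single-exon model, and 60 of the 65 members had such a model, between 375 and 2667 bases long. The other 5, all of them H2B rows (H2bc4, H2bc6, H2bc22, H2bc23 and H2bc24), had a spliced model. Chromosome 13 held 54 members between positions 21899881 and 24118896, chromosome 3 held 10 between 96127201 and 96177508, and chromosome 6 held H1f10 (GRCm39). All 12 H4 rows share a single protein entry in the table, as do 10 of the 17 H2A rows. Rows of H2bc6, H2bc1 and H2ac1 overlap a long non-coding RNA row, and with no strand setting given their reads may be shared with it.

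The hairpin was looked for in the GENCODE transcripts of the members (GRCm38) as the 16-base pattern GGNNCTTNNNAGNNCC whose first 6 bases pair with its last 6 around a loop of 4, on the transcript strand. It was present in 43 of the 65 members and in 0.153% of 58797 protein-coding transcripts. It began between 21 and 58 bases after the stop codon, with a median of 31. Of the 22 members without it, 15 had fewer than 16 bases after the stop codon in every transcript, so the window was not there to be searched, and 7 had a longer end in at least 1 transcript (H1f10, H2bc21, H2bc4, H1f1, H3c13, H2bc23 and H2bc24). The most common core was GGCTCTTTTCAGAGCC, found in 24 genes of the H1, H2A, H2B and H3 classes, while the H4 genes carried other cores, most often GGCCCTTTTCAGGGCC with 6 genes. The search pattern fixes part of the hairpin and the pairing of its arms, so likeness in those bases was set by the search. The hairpins of the most abundant member with one in each class are shown, with 2 further H4 genes that carry other cores. The hairpin is in capitals, with 5 flanking bases on each side.
H1f2, chr13:23739507-23739532, plus strand: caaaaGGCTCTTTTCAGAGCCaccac
H2ac18, chr3:96246027-96246052, plus strand: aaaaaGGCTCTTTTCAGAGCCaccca
H2bc11, chr13:22043633-22043658, plus strand: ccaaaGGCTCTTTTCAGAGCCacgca
H3c3, chr13:23745042-23745067, minus strand: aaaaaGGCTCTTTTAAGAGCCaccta
H4c9, chr13:22040961-22040986, minus strand: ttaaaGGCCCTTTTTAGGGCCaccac
H4c4, chr13:23581945-23581970, plus strand: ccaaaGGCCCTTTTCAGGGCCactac
H4c11, chr13:21735432-21735457, plus strand: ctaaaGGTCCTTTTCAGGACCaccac
Each loop is a run of T that ends in C, A or T, and the stems of H4c9 and H4c4 hold more G and C than those of the other 5. The polyadenylation signal AATAAA lay in the last 50 bases of the transcript in 13 members, among them H1f10, H1f2 and H2bc21, and in 40.5% of all protein-coding transcripts.

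Sequence shared between members bears on their counts. A median of 52.3% of the 50-base windows of a member's transcripts were shared with another gene's transcripts, and 33 members shared more than 50% of them. All windows of H2ac19 and 89.4% of those of H2ac18 were shared, so the split of reads between such copies is uncertain. H1f10 and H2bc21 shared 0% of their windows, H1f2 8.54% and H4c4 10.2%. The transcripts searched can be longer than the counted models, with 1138 against 402 bases for H4c4 and 1560 against 725 for H1f2. The shared part of the counted stretch may therefore be larger for such members.

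The whole-library values stood as follows. Reads recovered from the deposited values numbered 16800421 to 18382568 in the cKO libraries and 17252045 to 19565275 in the WT libraries. Bcas2 averaged 19.7 ± 1.92 FPKM in cKO and 42.6 ± 10.4 FPKM in WT (SD, n = 3 each; exact permutation p = 0.1, the smallest that 3 against 3 allows). All 8 oocyte markers of the fixed list passed the filter on low values, with summed levels of 863.0 to 1126 FPKM in cKO and 729.5 to 1129 FPKM in WT. The 6 markers of ovarian surface and mesonephric or oviduct epithelium all had a log2 fold change (cKO minus WT) above 0. The groups of 3 of them did not overlap, beside 4.2% of tested genes higher. Their sums did overlap, at 245.6, 253.3 and 297.1 FPKM in cKO and 107.2, 317.7 and 240.1 FPKM in WT. The bearing of this on the histone values was not tested. A pair of libraries stood apart in other markers. The 7 erythroid markers summed to 13348 FPKM in cKO replicate 2 and to between 400.7 and 1209 FPKM in the other 5 libraries, and the 6 stroma and pericyte markers summed to 955.2 FPKM in WT replicate 1 and to between 246.2 and 409.5 FPKM in the others. All of these markers were above 0 in every library, and the sums over all members are given with and without cKO replicate 2. For a named member whose fold change moved by over 1.5 times when a library was left out, the lowest and highest such values are given.

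Histone members were a small part of these libraries. They took 1713, 2715 and 2136 reads in cKO replicates 1, 2 and 3, against 2522, 2192 and 2204 reads in WT replicates 1, 2 and 3, between 0.0101% and 0.0162% of the reads of a library. H1f10 alone took 931, 1315 and 1052 of those reads in cKO and 1488, 1119 and 1221 in WT. At 0.0512 to 0.0594 FPKM for each read per kb of gene, and with a median length of 493 bases the members rest on few reads. No member was at 0 in all 6 libraries, and 32 were above 0 in each of them. The mean over the 6 libraries was at least 5 FPKM for 6 members, at least 1 FPKM for 18 and under 0.5 FPKM for 36, with a median of 0.424 FPKM. The filter of at least 1 FPKM in at least 3 of the 6 libraries was passed by 18 members. H3c10, at a mean of 0.956 FPKM, and H4c2, at 1.00 FPKM, lay just inside it, and H2ac13, at 1.10 FPKM, and H4c8, at 0.909 FPKM, just outside it. Among the 47 members under the filter, 36 had fewer than 10 reads in every library.

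The summed level of all 65 members was 112.0, 190.01 and 129.2 FPKM in cKO replicates 1, 2 and 3, against 144.1, 143.4 and 126.6 FPKM in WT replicates 1, 2 and 3. The groups overlapped, with the highest and the lowest library both among the cKO samples. The group means were 143.7 ± 41.0 FPKM in cKO and 138.0 ± 9.91 FPKM in WT (SD, n = 3 each), a ratio of 1.04 that became 0.973 after rescaling to TPM and 0.874 without cKO replicate 2. Without H1f10 the sums were 61.6, 116.4 and 75.8 FPKM in cKO and 63.7, 82.8 and 67.7 FPKM in WT, a ratio of 1.18, or 0.962 without cKO replicate 2. Without H1f10, H1f2 and H2bc21, the 3 members with the most reads, the other 62 summed to 49.7, 84.9 and 52.3 FPKM in cKO and to 32.9, 61.99 and 49.3 FPKM in WT. The ratio was then 1.30, or 1.06 without cKO replicate 2, and the choice to leave those 3 out was made after seeing the data. In all 3 sums cKO replicate 2 was the highest library.

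**Figure D1:**
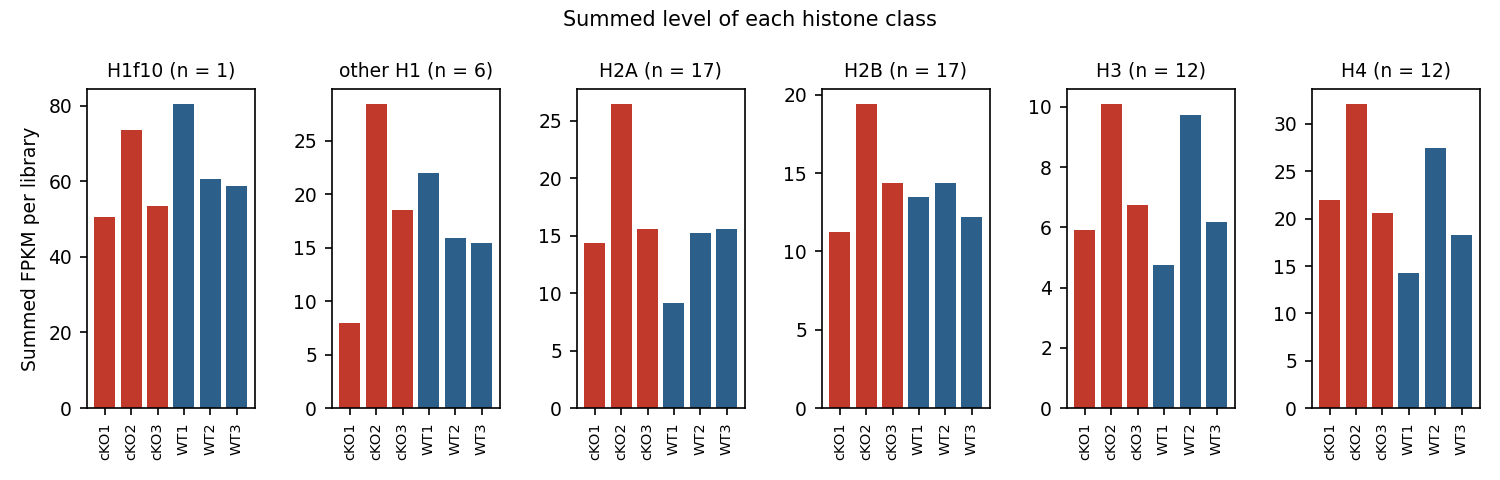
Summed FPKM of each histone class in each library (a bar per library, red for cKO and blue for WT, y axes from 0 and with a different scale in each panel). The cKO replicate 2 bar is the highest in every class but H1f10, where WT replicate 1 is highest at 80.4 FPKM, and WT replicate 1 is the lowest bar for H2A, H3 and H4.

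Classes differed in which library was lowest. The 6 H1 genes other than H1f10 summed to 7.97, 28.4 and 18.5 FPKM in cKO, against 22.0, 15.9 and 15.5 FPKM in WT, so cKO replicate 1 was lowest. H2A genes summed to 14.4, 26.4 and 15.6 FPKM in cKO and 9.17, 15.2 and 15.6 FPKM in WT, with WT replicate 1 lowest. H2B genes summed to 11.3, 19.4 and 14.3 FPKM in cKO and 13.4, 14.3 and 12.2 FPKM in WT. The class with the lowest summed level was H3, at 5.92, 10.1 and 6.76 FPKM in cKO and 4.76, 9.75 and 6.16 FPKM in WT. H4 genes summed to 22.0, 32.1 and 20.6 FPKM in cKO and 14.3, 27.5 and 18.3 FPKM in WT. In each of these 5 sums the groups overlapped, so no class was separated from WT beyond the spread of its libraries.

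The test across all genes (limma on log2(FPKM + 1), Benjamini-Hochberg adjustment over 14589 genes) called no histone member. At an adjusted p under 0.05, 0 of the 18 tested members were called, where the background was 0% of all tested genes, and the smallest adjusted p of a member was 0.955. The limma-voom alternative on recovered reads also called 0 members. At an unadjusted p under 0.05, 2 of the 18 members were higher in cKO (H2ac18 and H4c4) and 0 lower. Over all tested genes the shares were 1.89% higher and 1.14% lower. The voom alternative also gave 2 members, but the limma fit without cKO replicate 2 gave 0 of the 18. The values of the groups did not overlap for H2ac18 and H4c4, both higher in cKO, beside 4.2% of tested genes higher and 3.67% lower. Over all 65 members, non-overlapping values were found for 3 higher in cKO (H2ac18, H4c4 and H2ac13) and 1 lower (H2ac7), beside 4.1% and 3.08% of the 33311 rows above 0 in any library. For 18 members this precision is coarse: the 95% interval reached a median of 0.56 to either side of a member's log2 fold change, against 0.35 over all tested genes, so moderate differences in either direction were not detectable.

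**Figure D2:**
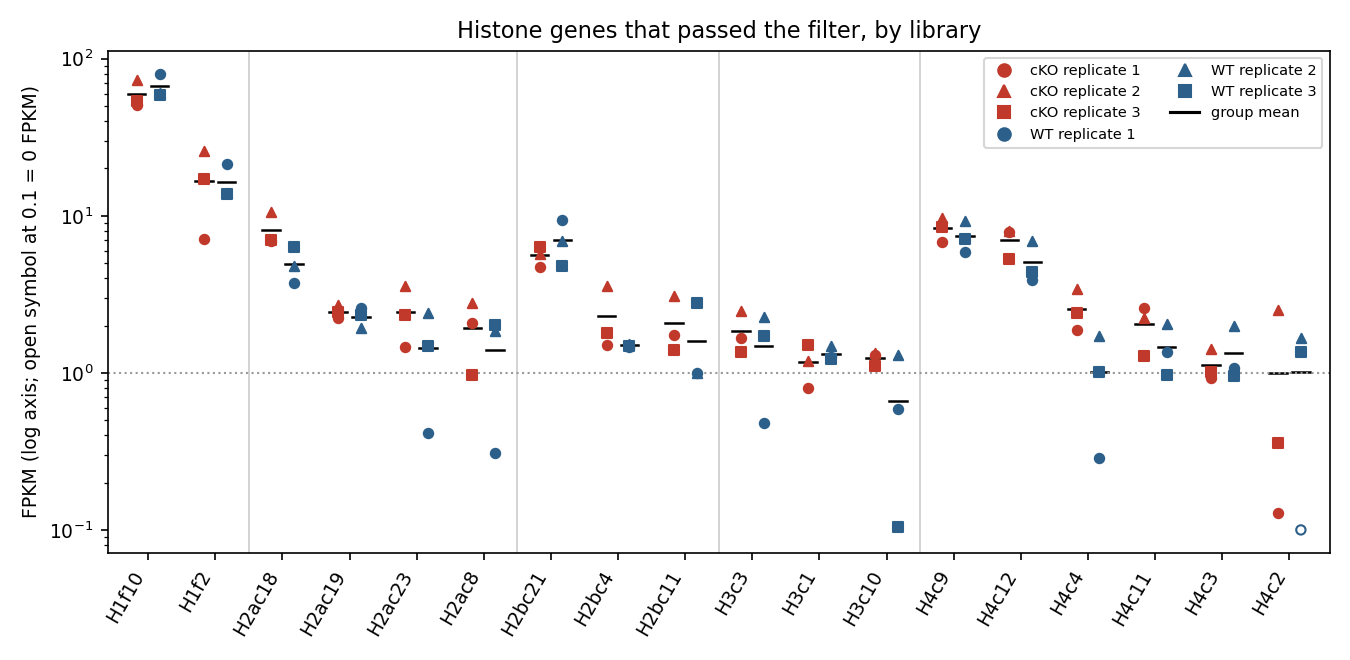
FPKM of the 18 histone members that passed the filter, in each library (log axis; red for cKO, left, and blue for WT, right; symbol shape gives the replicate, black bars the group means, an open symbol at 0.1 a value of 0, the dotted line 1 FPKM). The red triangles of cKO replicate 2 are the highest symbol for 13 of the 18 members and the blue circles of WT replicate 1 the lowest for 10.

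Among the tested members, cKO replicate 2 was the highest library for 13 of 18 and WT replicate 1 the lowest for 10 of 18. The median log2 fold change (cKO minus WT) of the 18 was 0.26, with a range of −0.24 to 0.87, beside a median of −0.01 over all tested genes. It was above 0 for 12 members and below 0 for 6, where 48.7% of all tested genes were above 0. Without H1f10 the median was 0.28, with 12 members above 0 and 5 below. The median of the 18 was 0.07 without cKO replicate 2, 0.11 without WT replicate 1 and −0.070 without both, a pairing of omissions chosen after seeing the data. The other 283 tested single-exon protein-coding genes had a median of 0.01, with 52.3% above 0, and the 12093 tested genes with a spliced model had a median of −0.01, with 46.8% above 0. Within the band of 1 to 10 FPKM the medians were 0.28 for 15 histone members, 0.01 for 176 other single-exon genes and −0.02 for 5765 spliced genes. The histone medians and counts describe the members that passed the filter, which a low member can pass through the group where it is high. They do not stand for all 65, whose median was 0.05 when no filter was applied, with 38 above 0 and 27 below.

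**Figure D3:**
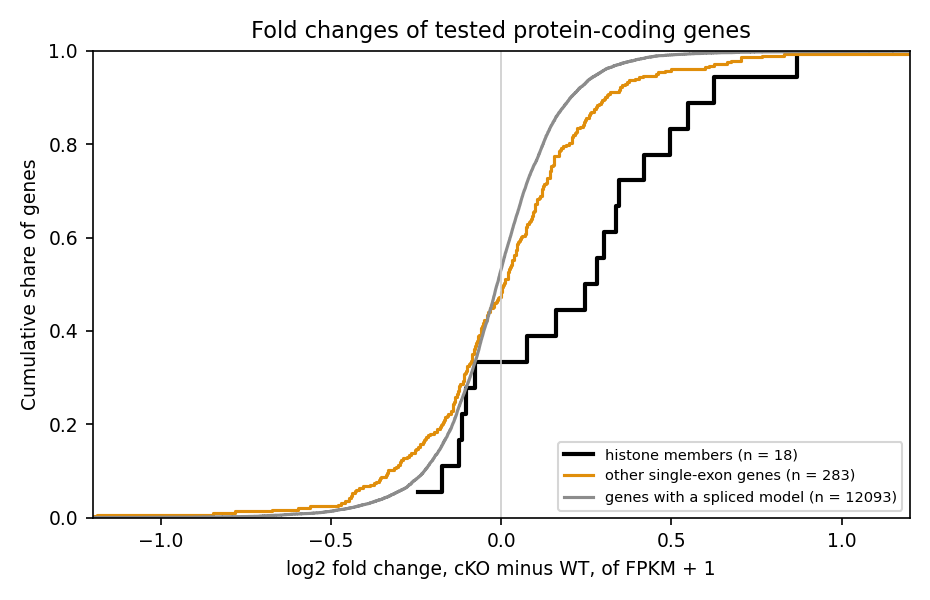
Cumulative share of genes (y axis) against the log2 fold change of FPKM + 1, cKO minus WT (x axis, drawn from −1.2 to 1.2), for 18 histone members (black), 283 other single-exon protein-coding genes (orange) and 12093 protein-coding genes with a spliced model (grey). The black line lies to the right over its upper part, with its median at 0.26, while both other lines cross their middle near 0.

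Linker histone H1, which binds the DNA between nucleosomes, was represented by 2 members above the filter. H1f10, at chromosome 6 from 87957403 to 87958464 on the minus strand (GRCm39, gene 243529), was the most abundant member, with 50.4, 73.6 and 53.5 FPKM in cKO and 80.4, 60.7 and 58.9 FPKM in WT. Its groups overlapped through cKO replicate 2, and its log2 fold change was −0.17 (SE 0.18; limma adjusted p = 0.955). Leaving out a library gave −0.34 (cKO replicate 2) to −0.034 (WT replicate 1). H1f2, at chromosome 13 from 23922790 to 23923514 on the plus strand (gene 50708), encodes a replication-dependent linker histone. It had 7.14, 25.8 and 17.1 FPKM in cKO and 21.4, 13.9 and 13.7 FPKM in WT. The cKO libraries of H1f2 held both its lowest and its highest value. Its log2 fold change was −0.10 (SE 0.42; adjusted p = 0.984), and leaving out a library gave −0.48 (cKO replicate 2) to 0.38 (cKO replicate 1). H1f5, another such linker histone, lay under the filter with 0.217, 0.898 and 0.476 FPKM in cKO and 0, 1.09 and 1.03 FPKM in WT, which rest on 3, 12 and 7 reads in cKO and 0, 15 and 16 reads in WT.

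H2A pairs with H2B in the nucleosome, and the 4 tested H2A members all had a log2 fold change above 0. H2ac18, at chromosome 3 from 96152813 to 96153368 on the plus strand (gene 15267), had 6.93, 10.6 and 6.99 FPKM in cKO and 3.72, 4.76 and 6.35 FPKM in WT. All 3 cKO values lay above all 3 WT values, though cKO replicate 1 and WT replicate 3 were close, at 67 and 69 reads. Its log2 fold change was 0.63 (SE 0.22, 95% interval 0.11 to 1.14; limma adjusted p = 0.955). H2ac19, its close copy on the same chromosome, had 2.22, 2.69 and 2.45 FPKM in cKO and 2.60, 1.93 and 2.32 FPKM in WT. Its groups overlapped, with a log2 fold change of 0.08 (SE 0.14; adjusted p = 0.967), and −0.0039 (WT replicate 2) to 0.14 (WT replicate 1) with a library left out. Since the counting may divide reads between these copies, their sum was taken as well: 9.15, 13.3 and 9.44 FPKM in cKO and 6.31, 6.70 and 8.67 FPKM in WT, which again did not overlap, at a ratio of 1.47, or 1.29 without cKO replicate 2 and 1.38 without WT replicate 1. H2ac23 had 1.46, 3.55 and 2.35 FPKM in cKO and 0.416, 2.40 and 1.48 FPKM in WT, with overlapping groups and a log2 fold change of 0.55 (SE 0.36; adjusted p = 0.955). With a library left out this became 0.20 (WT replicate 1) to 0.84 (WT replicate 2).

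H2A rows under the filter included a pair whose groups did not overlap, in opposite directions. H2ac13 had 1.16, 2.52 and 0.844 FPKM in cKO (9, 19 and 7 reads) and 0.640, 0.771 and 0.686 FPKM in WT (5, 6 and 6 reads). H2ac7 had 0.108, 0.222 and 0.101 FPKM in cKO (1, 2 and 1 reads) and 0.536, 0.538 and 0.287 FPKM in WT (5, 5 and 3 reads). The closest libraries of the groups were 1 read apart for both genes. With no filter on low values, limma called 0 of the 65 members, these included.

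The H2B class was led by a gene with an unusual end. H2bc21 had the longest single-exon model, 2667 bases, no hairpin match and an AATAAA signal, and it stood at 4.72, 5.72 and 6.34 FPKM in cKO and 9.36, 6.87 and 4.76 FPKM in WT. Its groups overlapped through WT replicate 3, with a log2 fold change of −0.24 (SE 0.22; adjusted p = 0.955), the lowest among the 18. It nearly vanished at −0.037 with WT replicate 1 left out, and reached −0.46 with WT replicate 3 left out. H2bc4, whose model in the table is spliced, had 1.50, 3.56 and 1.81 FPKM in cKO and 1.47, 1.53 and 1.49 FPKM in WT. Only cKO replicate 2 stood clear of the other libraries of H2bc4, and its log2 fold change was 0.35 (SE 0.24; adjusted p = 0.955), or 0.086 without cKO replicate 2. H2bc11 had 1.75, 3.09 and 1.41 FPKM in cKO and 0.996, 0.999 and 2.78 FPKM in WT, with overlapping groups and a log2 fold change of 0.28 (SE 0.32; adjusted p = 0.955). Omitting a library gave 0.058 (cKO replicate 2) to 0.59 (WT replicate 3).

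H3, whose tail carries many of the best-studied histone marks, had 3 tested members at low levels. H3c3 had 1.68, 2.48 and 1.35 FPKM in cKO and 0.478, 2.28 and 1.71 FPKM in WT. Its low value in WT replicate 1 rests on 4 reads, and its log2 fold change of 0.25 (SE 0.32; adjusted p = 0.955) became −0.091 without that library and 0.48 with WT replicate 2 left out. H3c1 had 0.802, 1.18 and 1.51 FPKM in cKO and 1.26, 1.49 and 1.22 FPKM in WT, with overlapping groups and a log2 fold change of −0.11 (SE 0.17; adjusted p = 0.962), and −0.23 (cKO replicate 3) to 0.011 (cKO replicate 1) with a library left out. H3c10 had 1.30, 1.34 and 1.11 FPKM in cKO and 0.588, 1.30 and 0.105 FPKM in WT, where its lowest value, in WT replicate 3, was 1 read. The cKO values of H3c10 lay close together and WT replicate 2 reached them, with a log2 fold change of 0.50 (SE 0.27; adjusted p = 0.955), and 0.23 (WT replicate 3) to 0.76 (WT replicate 2) with a library left out.

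H4, the partner of H3 in the core tetramer, had 6 tested members that encode the same protein. H4c9 had 6.85, 9.73 and 8.44 FPKM in cKO and 5.84, 9.29 and 7.11 FPKM in WT, with overlapping groups and a log2 fold change of 0.16 (SE 0.19; adjusted p = 0.955). Omitting a library gave 0.020 (WT replicate 1) to 0.31 (WT replicate 2). H4c12 had 7.88, 7.99 and 5.28 FPKM in cKO and 3.93, 6.90 and 4.38 FPKM in WT. The groups of H4c12 overlapped through WT replicate 2, at a log2 fold change of 0.42 (SE 0.22; adjusted p = 0.955). H4c4, at chromosome 13 from 23765551 to 23765952 on the plus strand (GRCm39, gene 319156), had 1.86, 3.40 and 2.42 FPKM in cKO and 0.285, 1.72 and 1.02 FPKM in WT. Its groups did not overlap, but cKO replicate 1 and WT replicate 2 differed by 1 read, at 13 and 12, and WT replicate 1 had 2 reads. Its log2 fold change was 0.87 (SE 0.30, 95% interval 0.15 to 1.59; limma adjusted p = 0.955), the highest of the 18, and 0.58 without WT replicate 1. H4c11 had 2.58, 2.25 and 1.28 FPKM in cKO and 1.36, 2.04 and 0.968 FPKM in WT, with overlapping groups and a log2 fold change of 0.30 (SE 0.24; adjusted p = 0.955), and 0.16 (WT replicate 3) to 0.50 (cKO replicate 3) with a library left out. H4c3 and H4c2 had log2 fold changes of −0.13 and −0.08, and a value of 0 in WT replicate 1 for H4c2 beside 1.66 and 1.37 FPKM in the other WT libraries shows how far these few reads scatter.

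Members also shared promoter letters that the name rule did not use. In RefSeq promoters (GRCm38.p6, 250 bases before to 50 after the start, both strands searched), 61 promoters of 60 members were found. The TATA sequence TATAAA was in 55.7% of them and in 13.6% of all 32851 promoters. CCAAT, the letters bound by factors such as NF-Y, was in 85.2% of member promoters and 37.4% of all, but unevenly by class: all promoters of H2A, H2B and H3 held it, and 27.3% of those of H4. The octamer ATTTGCAT, known as a site of the POU factor Oct1 in H2B promoters, was in 43.8% of H2B and 35.3% of H2A promoters, in 0% of those of H1, H3 and H4, and in 1.74% of all. Promoter windows of H2A and H2B genes that lie head to head overlap, so the same bases can be counted in both classes. H2ac12, for example, starts at 22219813 on the minus strand and H2bc12 at 22219991 on the plus strand (GRCm39). The shares of these classes are therefore not independent. None of the 3 motifs contains another, though neighbouring matches can share letters. The 120 bases before the start of the 2 tested members whose groups did not overlap are shown. Capitals mark the TATA sequence and the CCAAT letters, which stand as their reverse complement where the match is on the minus strand.
H2ac18, chr3:96245377-96245496, plus strand: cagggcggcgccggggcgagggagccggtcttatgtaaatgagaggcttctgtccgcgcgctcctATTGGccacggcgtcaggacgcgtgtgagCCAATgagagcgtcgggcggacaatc
H4c4, chr13:23581448-23581567, plus strand: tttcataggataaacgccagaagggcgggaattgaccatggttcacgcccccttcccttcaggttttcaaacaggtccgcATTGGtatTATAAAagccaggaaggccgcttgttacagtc
H2ac18 holds 2 CCAAT matches and no TATAAA in this stretch, while H4c4 holds a match of each. A TATAAA of H2ac18 lies 11 bases after the annotated start, beyond the stretch shown. A match is a description of letters only, and no binding was measured.

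Members were also summed by their 3′ end. The 43 members with a hairpin match summed to 41.1, 87.0 and 57.1 FPKM in cKO and 46.0, 59.2 and 52.3 FPKM in WT. The 15 whose transcripts end near the stop codon summed to 13.5, 18.7 and 10.3 FPKM in cKO and 6.82, 14.4 and 9.02 FPKM in WT. The 7 members with a longer end and no match summed to 57.4, 84.3 and 61.9 FPKM in cKO and 91.3, 69.8 and 65.3 FPKM in WT. Most of that sum was H1f10, and the 6 others reached 6.93, 10.7 and 8.39 FPKM in cKO and 10.9, 9.07 and 6.41 FPKM in WT. The groups overlapped in each of these sums.

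Beside their replacement counterparts the members stood low on the per-length scale. Whether poly(A) RNA was selected is not stated, so levels of transcripts with and without such a tail may not be comparable. H3f3a, which encodes H3.3, had 451.6, 588.2 and 428.3 FPKM in cKO and 428.6, 433.3 and 413.3 FPKM in WT, where the 12 H3 members together reached at most 10.1 FPKM. H3f3b, the other H3.3 gene, had 218.4, 272.4 and 294.4 FPKM in cKO and 403.7, 286.4 and 243.7 FPKM in WT. H2az1, which encodes H2A.Z, had 111.8, 133.5 and 119.8 FPKM in cKO and 89.4, 140.5 and 125.4 FPKM in WT, against at most 26.4 FPKM for the 17 H2A members. H1f0, a linker histone of non-dividing cells, had 76.3, 84.3 and 91.7 FPKM in cKO and 162.4, 107.8 and 73.7 FPKM in WT. Of the 11 replacement histones listed, 10 were tested, 0 were called, 7 were above and 3 below 0, and their median log2 fold change was 0.06. H2ax was listed at 0 in all 6 libraries. With the counter and annotation release not given, that value cannot be read as absence from the tissue.

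Factors that make, cut and degrade histone mRNA gave no call. Of the 23 listed, all were tested and 0 were called, with 14 above 0 and 9 below, and a median log2 fold change of 0.06. The groups did not overlap for 0 higher and 2 lower genes, beside 4.2% of all tested genes higher and 3.67% lower. The 2 were Cpsf2, a subunit of the cleavage complex, and Eri1, an exonuclease that trims the hairpin, both named after their values were seen. Slbp had 45.0, 51.6 and 41.1 FPKM in cKO and 33.4, 39.7 and 46.8 FPKM in WT, a log2 fold change of 0.20 (SE 0.15; limma adjusted p = 0.955) with overlapping groups. Npat, the coactivator of histone gene transcription, had 9.17, 9.07 and 9.96 FPKM in cKO and 10.3, 9.15 and 8.89 FPKM in WT. Casp8ap2, a component of the bodies that form at histone genes, had 10.7, 9.12 and 9.13 FPKM in cKO and 7.37, 10.05 and 8.91 FPKM in WT. Lsm10, a protein of the U7 particle, had 12.3, 12.2 and 15.6 FPKM in cKO and 10.9, 10.9 and 12.5 FPKM in WT. The groups of Npat, Casp8ap2 and Lsm10 overlapped. Snrpg, Snrpe and Snrpb, Sm proteins that U7 shares with the spliceosomal particles, had log2 fold changes of 0.32 (SE 0.23), 0.29 (SE 0.16) and −0.05 (SE 0.15).

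Histone chaperones and the genes of DNA replication and mitosis gave no call either. Of 19 chaperones tested, 7 were above and 12 below 0, with a median of −0.05 and 0 called. Npm1, an abundant nucleolar chaperone, and Hat1, which acetylates new H4, had log2 fold changes of 0.13 (SE 0.15) and 0.17 (SE 0.19). Of 25 S-phase genes, 9 were above and 16 below 0, with a median of −0.05 and 0 called. The S-phase list summed to 558.7, 678.0 and 624.0 FPKM in cKO and 526.5, 670.2 and 735.6 FPKM in WT. Pcna, the sliding clamp of the replication fork, had 84.7, 136.6 and 100.4 FPKM in cKO and 84.1, 122.1 and 131.5 FPKM in WT, and Mcm6, of the replicative helicase, had 38.8, 40.3 and 41.1 FPKM in cKO and 36.1, 42.4 and 46.9 FPKM in WT. Of 10 mitosis genes, 3 were above and 7 below 0, with a median of −0.02 and 0 called. Mki67, a marker of cycling cells, had 11.9, 36.4 and 14.7 FPKM in cKO and 17.1, 19.5 and 21.9 FPKM in WT, so that cKO replicate 2 was high for Mki67 as it was for the histone sums.

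**Figure D4:**
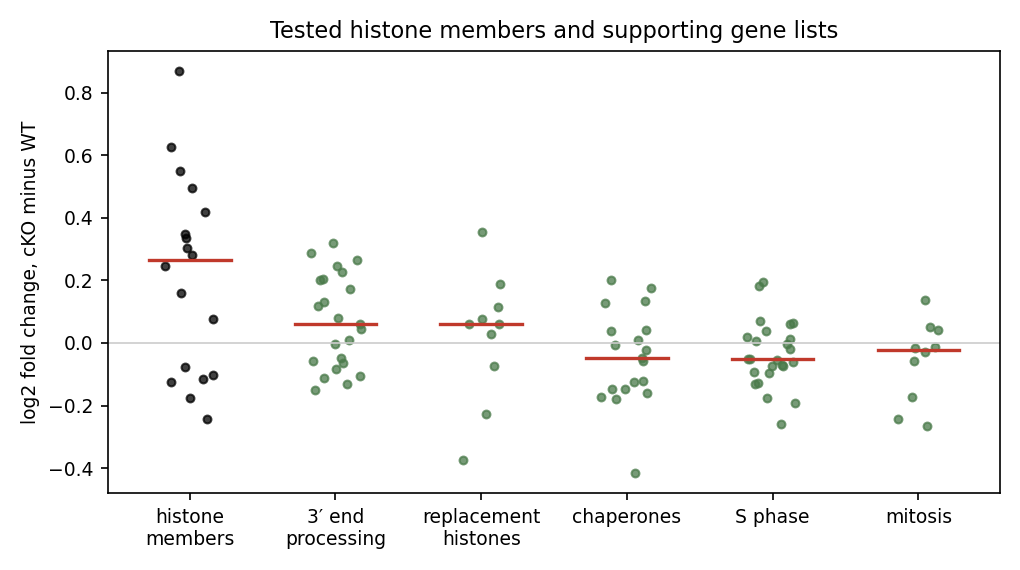
Log2 fold change (cKO minus WT, of FPKM + 1) of the 18 tested histone members and of each tested gene of the 5 supporting lists (points), with the median of each list (red line). The histone members spread from −0.24 to 0.87 around 0.26, and the medians of the other lists lie between −0.05 and 0.06.

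Several other measures were set beside a histone sum chosen after seeing the data. The sums of all 65 members and without H1f10 were instead lowest in cKO replicate 1, at 112.0 and 61.6 FPKM. The 62-gene sum (without H1f10, H1f2 and H2bc21) ordered the libraries as cKO replicate 2, WT replicate 2, cKO replicate 3, cKO replicate 1, WT replicate 3 and WT replicate 1 from high to low. Rn7sk, the polymerase III transcript 7SK that has no poly(A) tail, gave the same order, with 24.1, 71.8 and 31.2 FPKM in cKO and 1.73, 36.4 and 13.6 FPKM in WT. So did the sum of 7 listed transcripts without such a tail, at 39.1, 93.0 and 46.2 FPKM in cKO and 10.8, 59.3 and 28.4 FPKM in WT, of which 5 were tested and 0 called, a list added after seeing the data and of which Rn7sk is the largest part in 5 of the 6 libraries. Of the other tested transcripts of that list, Rpph1 kept the order, with 2.12, 6.95 and 2.66 FPKM in cKO and 0, 6.91 and 2.05 FPKM in WT. Rnu7, the RNA of the U7 particle, did not follow, with 8.35, 9.58 and 6.97 FPKM in cKO and 8.33, 11.1 and 9.08 FPKM in WT. Nor did Terc and Rmrp, the latter named after its values were seen. Both were highest in cKO replicate 3, at 2.45 and 2.55 FPKM, against 1.35 and 1.94 FPKM in cKO replicate 2. The labels give total RNA as the extracted molecule, and they do not state whether poly(A) RNA was selected. The haemoglobin gene Hbb-bt, chosen after its values were seen, with 67.9, 1690 and 114.2 FPKM in cKO and 27.0, 50.6 and 119.9 FPKM in WT, was also highest in cKO replicate 2 and lowest in WT replicate 1, as were all 7 erythroid markers in sum. The part of poly(A)-free RNA, of blood cells or of cycling cells in the histone values was not tested.

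**Figure D5:**
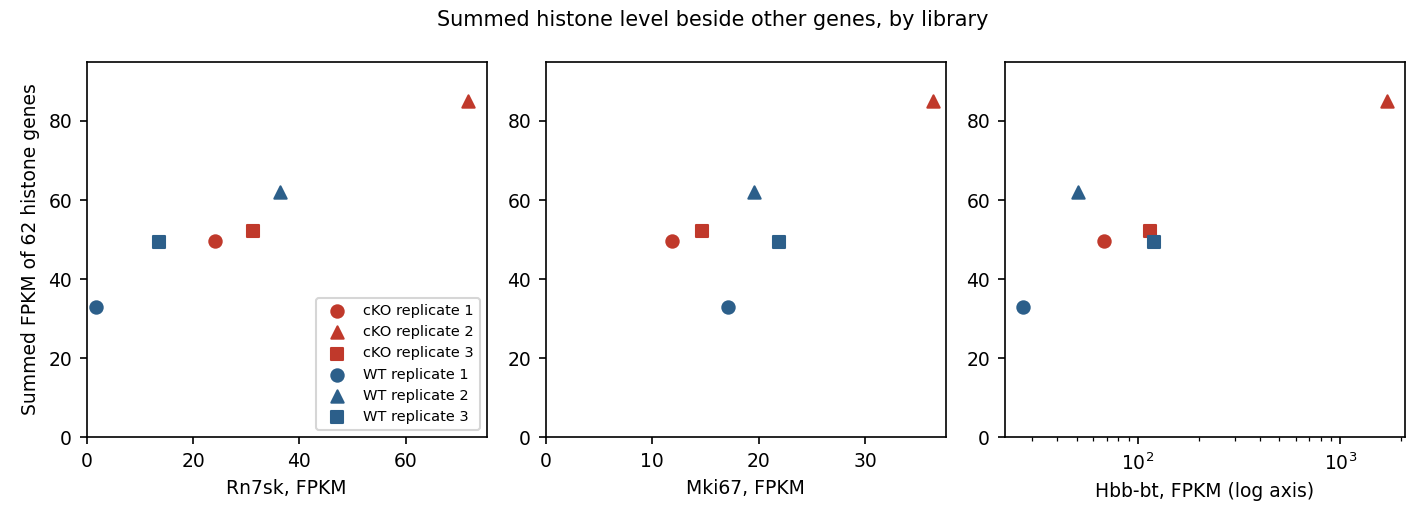
Summed FPKM of the 62 histone genes (y axis, from 0) against the FPKM of Rn7sk, of Mki67 and of Hbb-bt (log axis) in each library (red for cKO, blue for WT, symbol shape for the replicate). Against Rn7sk the 6 libraries keep the same order on both axes, with cKO replicate 2 highest on all 4 measures and WT replicate 1 lowest on the histone, Rn7sk and Hbb-bt axes.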

How the data were processed

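RNA of 6 ovary samples (3 cKO, 3 WT, 1 dpp) was compared. The authors deposited FPKM, a count per length with a scale for each library, for 47122 rows. Per the submitters' processing notes, HISAT2 2.0.5 was used with mm10 and GRCm39, and the table's coordinates follow GRCm39. No source used here gives the counter, the annotation release, the strand setting or the library selection. A description label names granulosa cells where the titles and tissue give ovary, and ovary was used. The deposited FPKM times gene length, divided by a step per library, gave whole reads for 100% of the values checked (within 0.05 of a whole number), and intervals on such reads would cover counting error only. Replicates of a group differed by more than sampling noise, with 15.6 to 82.2 chi-square units per degree of freedom.

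Values were tested as log2(FPKM + 1) with limma 3.58.1 in R 4.3.3 (two-sided, trended prior), after a filter of at least 1 FPKM in at least 3 of 6 libraries, with Benjamini-Hochberg adjustment over 14589 genes and a threshold of 0.05. Fold changes on that scale understate the change of low genes. The fit was tested on simulated data whose added effects were all larger than the fold changes of the tested histone members. That test therefore does not bear on the detection of changes as small as theirs. Sums of FPKM over members were compared without a test. Full values are given for the 3 most abundant members of each class, the 8 tested members with the smallest p and members whose groups do not overlap; of the supporting lists, the 3 most abundant genes, the 2 with the smallest p and Slbp, Npat, Casp8ap2, Mki67, Pcna and Mcm6 could be named. The members and lists were chosen with earlier results of these data known. Transcripts came from GENCODE M21 (GRCm38) and promoters from RefSeq (GRCm38.p6), both matched by symbol or gene identifier, since no GRCm39 genome was used here. Alternatives were another pseudocount, filter or scaling, limma-voom on the recovered reads, a replicate block and omission of libraries or members.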

Additional observations from a re-analysis of the deposited data

How the results depend on the processing

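The count of histone members called was 0 under every alternative run, and so was the count over the 5 supporting lists. Over all genes the count was 0 except without cKO replicate 2, where it was 1 (Pcna-ps2), so leaving out a library gave 0 to 1, and at an unadjusted p under 0.05 it gave 253 to 1056 genes against 443 with all libraries. The median log2 fold change of the tested members, 0.26, was 0.46 with a pseudocount of 0.1, 0.49 with limma-voom, 0.05 with no filter (65 members), 0.03 with a filter at 5 FPKM (6 members), 0.08 after rescaling to TPM (36 members, against −0.08 over all genes), 0.16 for the 9 members with at least 100 reads over the 6 libraries, and 0.07 to 0.40 with a library left out. It was −0.070 without cKO replicate 2 and WT replicate 1 together, an alternative added after seeing the data, and the cause was not tested. The ratio of summed FPKM, 1.04, became 1.30 without H1f10, H1f2 and H2bc21, also added after seeing the data, and ranged over 0.874 to 1.16 with a library left out. Of 186 fold changes of named members recomputed, 5 changed sign, all with a library left out. A filter or the replicate block leaves a fold change as it is, so the values under those settings could not change sign. The range over the libraries left out was −0.48 to 0.38 for H1f2, −0.23 to 0.011 for H3c1, −0.091 to 0.48 for H3c3 and −0.0039 to 0.14 for H2ac19. Median-of-ratios factors were equal in all 6 libraries (1.0007), so that scaling could move nothing and was not a separate check.

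With the replicate number as a block, 0 genes and 0 members were called and 432 genes had an unadjusted p under 0.05. Samples of the same number did not deviate together (correlations of 0.221, 0.0135 and −0.0278 for numbers 1, 2 and 3), so the numbers were not taken as pairs. With 36 of the 65 members under 10 reads in every library, depth limits most of the family to a statement that no difference was detectable.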

Other observations

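Histone rows outside the name pattern were also measured. H2bu2, an H2B gene on chromosome 11, had 2.49, 9.77 and 4.32 FPKM in cKO and 4.47, 3.12 and 3.66 FPKM in WT. Like 13 of the 18 tested members and 29 of all 65, it was highest in cKO replicate 2. Its log2 fold change was 0.31 (SE 0.38; limma adjusted p = 0.955). H4f16, an H4 gene on chromosome 6, had 0.655, 0.812 and 0.123 FPKM in cKO and 0.131, 1.84 and 1.40 FPKM in WT, with overlapping groups. The pseudogene H2bu1-ps was at 0 in the 3 cKO libraries and at 0.370, 0.248 and 0.220 FPKM in the WT libraries, where these values are 3, 2 and 2 reads. Its groups did not overlap, as for 3.08% of the rows above 0 in any library in that direction. H2aw and H1f7 were listed at 0 in all 6 libraries.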
